A study of Mus musculus with 4 samples.

Results

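Wnt receptor and effector genes in mouse salivary gland organoids (mSGOs) comprised 10 of the 21440 protein-coding genes that could be placed with a strand, and were taken by name: the R-spondin receptor genes Lgr4, Lgr5 and Lgr6, the ubiquitin ligase genes Rnf43 and Znrf3, the scaffold gene Axin2, and the transcription factor genes Tcf7, Tcf7l1, Tcf7l2 and Lef1. Chromatin accessibility around them was read from 1 list of 32011 distinct open regions, made by bulk ATAC-seq, an assay in which the Tn5 transposase cuts DNA that is not packed away. The list was deposited for 4 samples of non-irradiated organoids grown from submandibular glands of C57BL/6 mice: 2 of passage 1 and 2 of passage 2, with 1 mouse aged 12 weeks and 1 aged 3 months given for each passage. The study describes the sequenced mSGOs as 7-day organoids, and its methods give 4 mice as their source. By the study's general culture methods, mSGOs grew in Matrigel in WRY medium, which contains R-spondin1- and Wnt3a-conditioned medium. The sample titles name no medium, so supply of Wnt and R-spondin to every sample is taken from those methods. No comparison with organoids grown without them was made. The list holds no value for any single sample. Passages and ages could therefore not be compared, replicate spread and depth per sample are unknown, and every value below is a description without a test. A gene with no listed region is not thereby shown to be closed, because the depth needed to detect a region is not known.

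Wnt proteins bind Frizzled receptors with the co-receptors Lrp5 and Lrp6, which stops a destruction complex built on axin from removing β-catenin. β-Catenin then enters the nucleus and works with TCF/LEF proteins, which bind DNA at their target genes. Rnf43 and Znrf3 remove Frizzled receptors from the cell surface, and R-spondins, held by Lgr4, Lgr5 or Lgr6, take these ligases out of action. Axin2 is both a brake on the pathway and a widely used readout of it, and Lgr5 marks Wnt-dependent stem cells in the intestine and several other epithelia.

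Markers of epithelium were mostly open in the list. Of 18 salivary and epithelial marker genes, 13 had a region with its midpoint within 1 kb of the outermost annotated 5′ end, among them Krt14, Krt5, Krt8, Epcam, Cdh1, Sox9, Cd44 and Itgb1. The exceptions were Krt7, Krt18, Chrm3, Aqp5 and Trp63, of which Trp63 held 7 regions further inside the gene and Chrm3 6. Of 18 immune, endothelial and fibroblast markers, 1 had such a region, the macrophage gene Cd68. The matching share of all protein-coding genes was 38.3%. Away from their 5′ ends, these 18 markers were not empty. Pecam1 held 3 regions within the gene, Tek and Pdgfra held 1 each, and the rest held none. Among regions over 1 kb from all protein-coding 5′ ends, 26 were nearest to these markers, including 7 to Cdh5. For the 18 salivary and epithelial markers it was 87, of which Sox9 had 23. The median per gene was 1 for the immune, endothelial and fibroblast markers and 4 for the salivary and epithelial ones. Over all protein-coding genes the median was 0 and the mean 1.11.

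Of the Wnt receptor and effector genes, 5 of 10 had an open 5′ end (Lgr4, Rnf43, Znrf3, Tcf7l1 and Tcf7l2), meaning a region within that distance, and so did 38.3% of all protein-coding genes. Counted together, 58 distinct regions belonged to the 10 genes by position: 6 lay at their 5′ ends, 32 had their midpoint within a gene, and 42 were distal regions, farther than 1 kb from the 5′ ends of all protein-coding genes, whose nearest such end was that of one of the 10. The last 2 kinds overlap, and a nearest 5′ end is a position, not a known target. The regions were very unevenly shared. Lgr4, Tcf7l1 and Tcf7l2 together held 23 of the 32 regions within genes, whereas Lgr5, Tcf7 and Lef1 held 0. These 10 genes are long, with a median extent of 118 kb against 17.5 kb for protein-coding genes, and a longer gene has more room for regions.

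**Figure D1:**
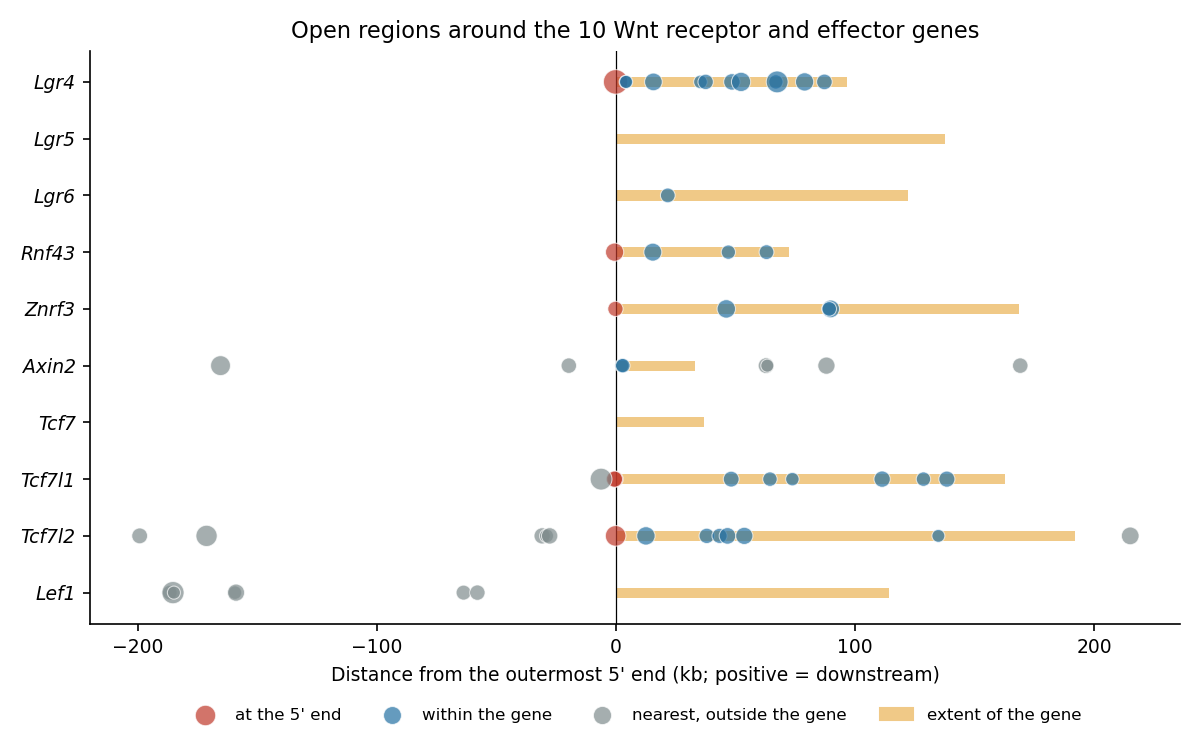
Position of the 58 open regions relative to the outermost 5′ end of each gene, in kb, with positive values downstream; circle area is proportional to the fold over local background, and bars show the extent of each gene. Regions are strung along Lgr4, Tcf7l1 and the first part of Tcf7l2, while Lgr5 and Tcf7 have none and those nearest to Lef1 all lie upstream of the gene.

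The sequence just upstream of 6 start sites is shown because it sets the open starts (Lgr4, Axin2, Tcf7l1 and Tcf7l2) beside the ones without a listed region (Lgr6 and Lef1). Bases are from RefSeq on GRCm38.p6, 5′ to 3′ on the gene's own strand, and stop at the base before the most upstream annotated start in that stretch. Capitals mark bases inside an open region of the list, and lower case marks bases outside one.
Lgr4 (chr2:109917397-109917646, plus strand): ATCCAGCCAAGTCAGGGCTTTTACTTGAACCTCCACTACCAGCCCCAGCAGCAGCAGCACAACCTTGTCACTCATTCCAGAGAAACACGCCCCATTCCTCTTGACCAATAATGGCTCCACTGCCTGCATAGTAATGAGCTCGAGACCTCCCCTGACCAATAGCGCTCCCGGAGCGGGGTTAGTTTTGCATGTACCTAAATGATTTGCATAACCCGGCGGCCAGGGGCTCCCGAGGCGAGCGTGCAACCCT
Axin2 (chr11:108920099-108920348, plus strand): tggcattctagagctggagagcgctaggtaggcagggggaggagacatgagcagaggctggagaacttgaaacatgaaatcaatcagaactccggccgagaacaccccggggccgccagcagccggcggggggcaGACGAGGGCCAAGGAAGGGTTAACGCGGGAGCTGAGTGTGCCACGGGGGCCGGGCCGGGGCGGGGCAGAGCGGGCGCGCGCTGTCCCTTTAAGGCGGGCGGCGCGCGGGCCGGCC
Tcf7l1 (chr6:72789046-72789295, minus strand): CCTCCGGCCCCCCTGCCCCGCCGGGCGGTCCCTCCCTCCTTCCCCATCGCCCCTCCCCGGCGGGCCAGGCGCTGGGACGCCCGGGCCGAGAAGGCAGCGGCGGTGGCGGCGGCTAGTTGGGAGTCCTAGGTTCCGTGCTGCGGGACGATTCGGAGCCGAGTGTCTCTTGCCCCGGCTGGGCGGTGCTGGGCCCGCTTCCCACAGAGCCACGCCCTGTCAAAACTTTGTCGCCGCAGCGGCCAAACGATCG
Tcf7l2 (chr19:55741560-55741796, plus strand): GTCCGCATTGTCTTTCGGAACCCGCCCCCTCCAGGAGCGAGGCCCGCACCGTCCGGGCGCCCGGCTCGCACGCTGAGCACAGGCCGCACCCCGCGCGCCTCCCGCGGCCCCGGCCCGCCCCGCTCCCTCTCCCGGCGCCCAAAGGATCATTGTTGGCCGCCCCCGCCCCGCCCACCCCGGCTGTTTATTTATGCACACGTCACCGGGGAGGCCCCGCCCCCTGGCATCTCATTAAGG
Lgr6 (chr1:135105375-135105526, minus strand): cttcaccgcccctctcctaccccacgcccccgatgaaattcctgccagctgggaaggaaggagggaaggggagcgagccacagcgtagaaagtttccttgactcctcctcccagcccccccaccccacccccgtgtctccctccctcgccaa
Lef1 (chr3:131110047-131110296, plus strand): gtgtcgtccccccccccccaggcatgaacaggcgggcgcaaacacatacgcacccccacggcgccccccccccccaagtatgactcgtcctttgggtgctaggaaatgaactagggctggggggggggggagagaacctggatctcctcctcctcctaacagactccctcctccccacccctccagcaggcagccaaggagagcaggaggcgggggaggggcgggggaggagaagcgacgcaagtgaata

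All bases shown for Lgr4, Tcf7l1 and Tcf7l2 lay inside an open region, as did 115 of the 250 bases shown for Axin2, namely those next to the start. For Lgr6 and Lef1 it was 0. RefSeq start windows, each covering 250 bases before and 50 after a start, were matched by gene for 8 of the 10 genes, with 14 starts in all, of which 5 had a region within 1 kb, beside 40.2% of all protein-coding start windows. Lgr5 and Znrf3 had no entry.

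Among the R-spondin receptor genes, most regions lay at Lgr4, which encodes a broadly expressed member of the family. The region over its start, chr2:109917350-109917888, had a fold of 15.4 over the local background, higher than 95.3% of the 8178 regions of the list that lie at protein-coding 5′ ends. It was 539 bp wide, had a single summit and covered all 300 bases of the start window. Within the 96.6 kb of the gene, 11 further regions were listed, a number that 0.457% of protein-coding genes reached or exceeded, and 4 of them were among the 16006 regions with the lowest q-values (the stricter set). Their density was 11.4 per 100 kb, which 6.39% of protein-coding genes reached or exceeded. So did 0.0828% of those of at least 100 kb, a class that Lgr4 itself falls just short of. The strongest, chr2:109984947-109985354, lay 67.5 kb downstream of the start with a fold of 12.2. The next, chr2:109969867-109970238, lay 52.4 kb downstream with a fold of 9.44. The other 9 had folds from 4.33 to 8.50. From 52.4 kb onward, 5 of the 11 lay nearer to the 5′ end of the neighbouring gene Ccdc34 than to that of Lgr4.

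At Lgr5, which encodes the stem cell-associated receptor of the family, the 137.5 kb of the gene held 0 regions. None was nearest to its 5′ end either, although the stretch of chromosome 10 nearest to that end was 123 kb long. The closest region midpoint of the list lay 128.6 kb from the start, where the median over protein-coding genes was 7.6 kb and the 95th percentile 557.6 kb. For protein-coding genes of at least 100 kb, the median was 14.0 kb, the upper quartile 80.4 kb and the 95th percentile 418.7 kb. Among the 2415 protein-coding genes of at least 100 kb, 27.4% also held no region, so a long gene without any was not rare.

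Lgr6, which encodes the third receptor and is known from skin and other epithelia, had no region at the outermost 5′ end or at its RefSeq start. A single region lay within its 122.1 kb, chr1:135083432-135083780, 21.8 kb downstream of the 5′ end, with a fold of 5.53 that exceeded 21.7% of all regions. Thus 12 of the 13 regions of the 3 receptor genes belonged to Lgr4. Their order by regions within the gene was Lgr4 (11), Lgr6 (1) and Lgr5 (0), and with 1 list no error can be set on the last difference.

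Both ligase genes had an open 5′ end, and the 2 regions were placed differently. At Rnf43, chr11:87662411-87662816 (fold 8.47) ended upstream of the start, with its midpoint 474 bp away, so that 0 of the 300 bases of the start window lay inside it. At Znrf3, chr11:5444737-5445211 had its midpoint 127 bp upstream and a fold of 5.92, the lowest among the members' 5′-end regions, and it was not in the stricter set. Each gene held 3 further regions. Those of Rnf43 lay 15.5, 47.1 and 63.1 kb downstream with folds of 8.21, 5.19 and 5.57, and the last 2 lay nearer to the 5′ end of Supt4a. Those of Znrf3 lay 46.2, 89.3 and 89.9 kb downstream with folds of 8.67, 5.40 and 8.02. A second RefSeq start of Rnf43, 36.8 kb into the gene by its start window, had no region within 1 kb; the closest was 10.3 kb away.

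Whether the 5′ end of Axin2 counted as open depended on the annotated start used. The outermost 5′ end, from the gene table, had no region within 2 kb. The RefSeq start in the promoter table lies 2521 bp further downstream, and 2 regions sat within 1 kb of it. The first, chr11:108920234-108920575, had its midpoint 55 bp from that start and a fold of 5.06. The second, chr11:108920693-108920896, followed closely with a fold of 5.32. Both were weak for the list, exceeding 12.8% and 17.8% of all regions. By any RefSeq start, 5 of the 8 genes in the promoter table had a region (Lgr4, Rnf43, Axin2, Tcf7l1 and Tcf7l2), beside 42.0% of the protein-coding genes in that table.

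Beyond its start, 6 more regions lay nearest to Axin2 over a stretch of 436 kb, making 8 in all, a number that 2.55% of protein-coding genes reached or exceeded. With 5′ ends of noncoding genes also allowed as the nearest, 2 of the 8 stayed with Axin2, and 1 of the 8 was in the stricter set. Per length the 8 regions came to 1.83 per 100 kb, against a median of 0 and an upper quartile of 1.74 over protein-coding genes. The strongest of these, chr11:108752323-108752749, had a fold of 10.1 and lay 165.3 kb upstream, inside the gene Cep112. A pair at chr11:108980500-108980904 and chr11:108981088-108981352, with folds of 6.36 and 4.33, lay 62.9 and 63.4 kb downstream, past the end of the gene.

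Of the TCF/LEF genes, Tcf7l1 and Tcf7l2 had open 5′ ends and 6 regions each within the gene, while Tcf7 and Lef1 had neither. Among all protein-coding genes, 38.3% had an open 5′ end and 39.5% held a region. The genes also differ in length: 162.7 kb for Tcf7l1, 191.9 kb for Tcf7l2, 36.9 kb for Tcf7 and 114.1 kb for Lef1. Per 100 kb, 9.48% of protein-coding genes of at least 100 kb reached or exceeded the density of Tcf7l1, and 13.3% that of Tcf7l2. The split did not hold in the stricter set, where Tcf7l1 had no open 5′ end and 0 regions within the gene. There, Tcf7l2 kept its open 5′ end and 2 regions. Tcf7l1 is best known as a repressor of Wnt targets, Tcf7l2 acts as an activator or repressor depending on its partners, and Tcf7 and Lef1 are known above all from lymphocytes and, for Lef1, from hair follicle and other ectodermal buds.

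At Tcf7l2, chr19:55741507-55741993 covered the whole start window with a fold of 10.8. This was above 76.5% of the regions at protein-coding 5′ ends and 84.4% of all regions. Of the 6 regions within its 191.9 kb, 5 lay between 12.6 and 53.8 kb from the 5′ end, with folds from 5.81 to 8.58, and the sixth, at 134.9 kb, had the lowest fold of all member regions, 4.28. The second RefSeq start of the gene, 153.5 kb downstream, had no region within 1 kb, and the closest lay 18.6 kb from it. Counting beyond the gene, 12 regions were nearest to the 5′ end of Tcf7l2, which 0.835% of protein-coding genes reached or exceeded. The stretch nearest to that end was 486 kb long, so their density was 2.47 per 100 kb. Over protein-coding genes the upper quartile was 1.74 and the 95th percentile 6.01. The 12 regions included a group of 3 at 27.6 to 30.8 kb upstream (folds 4.99 to 6.85) and 2 within Vti1a. The stronger of these 2, chr19:55570450-55570875, had a fold of 11.6. When 5′ ends of noncoding genes were also allowed as the nearest, 0 of the 12 stayed with Tcf7l2.

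At Tcf7l1, the 5′ end carried 2 regions only 52 bp apart, chr6:72789005-72789448 (fold 6.40) and chr6:72789501-72789725 (fold 6.74). The first covered 291 of the 300 bases of the start window. A stronger region, chr6:72794946-72795404, lay 6.1 kb upstream with a fold of 12.1. The 6 regions within the gene were spread from 48.3 to 138.5 kb downstream with folds from 4.61 to 6.78, and the 3 farthest from the start lay nearer to the 5′ end of Tgoln1.

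Tcf7 held 0 regions and was nearest to 0. Its 2 RefSeq starts and its outermost 5′ end were each over 50 kb from the closest region, whose midpoint lay 50.4 kb upstream of the outermost end. Lef1 had 0 regions within its 114.1 kb and 0 at any of its 4 RefSeq starts, the last of which lies 46.0 kb into the gene. However, 7 regions upstream were nearest to its 5′ end, at distances from 57.9 to 186.5 kb. Over the 271 kb nearest to that end, this was 2.58 per 100 kb. The strongest, chr3:130924877-130925350, lay 185.2 kb upstream with a fold of 12.6, and the other 6 had folds from 4.38 to 7.53. With noncoding 5′ ends allowed, 0 of these 7 stayed with Lef1.

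**Figure D2:**
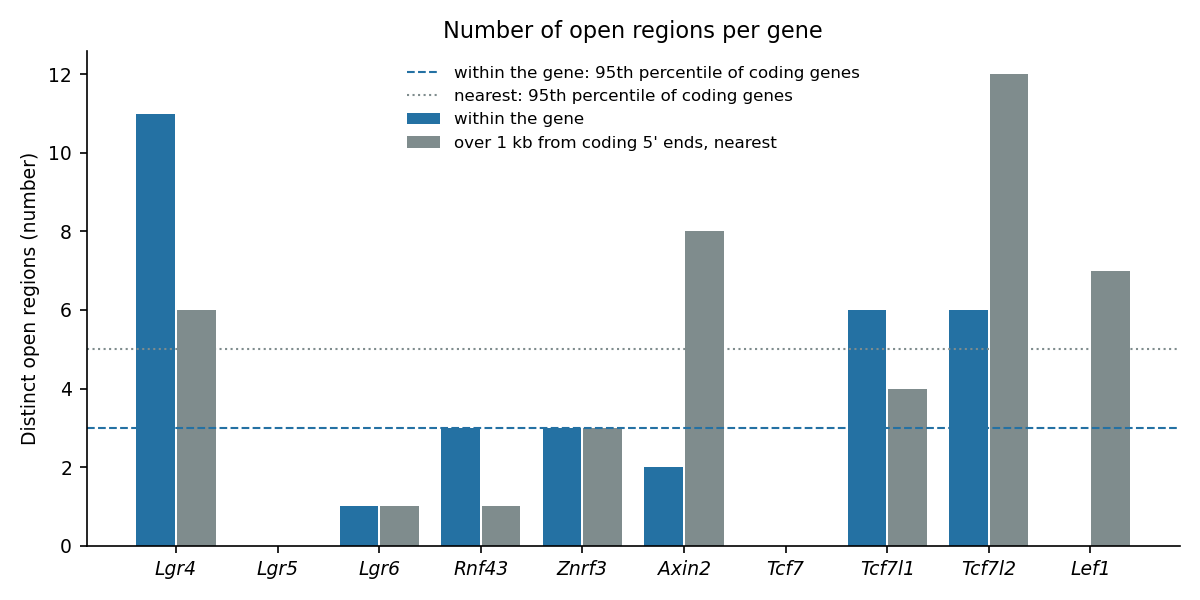
Number of distinct open regions per gene, with midpoint within the gene (blue) or distal and nearest to the 5′ end of that gene (grey); lines mark the 95th percentile over 21440 protein-coding genes, 3 and 5 regions. Lgr4, Tcf7l1 and Tcf7l2 exceed the first line, and Lgr4, Axin2, Tcf7l2 and Lef1 exceed the second. Of the 8 regions counted as distal for Axin2, 2 lie within 1 kb of its RefSeq start. Over protein-coding genes of at least 100 kb, both percentiles are 10. Of the members that long, Tcf7l1 and Tcf7l2 (6 regions within each) and Lef1 (7 nearest) stay below it, and Tcf7l2 (12 nearest) exceeds it.

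Over all 10 genes, the median was 2.5 regions within the gene and 3.5 nearest to it, beside medians of 0 for both over all protein-coding genes, of which 39.5% held a region and 40.4% were nearest to one. The 6 members of at least 100 kb had medians of 2 and 3.5, against 2 and 1 for all protein-coding genes of that length. Per 100 kb of gene, these 6 had a median of 1.30 regions, against 0.877. Over all 10 members the mean was 3.10 regions per 100 kb and over all protein-coding genes it was 3.01.

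The regions themselves were modest in signal. Their median fold was 6.36 (range 4.28 to 15.4), with 39 of 58 below the list's median of 7.11. An IDR score of 1000, the highest, which marks the most reproducible regions in the authors' pipeline, was given to 15 of 58 (25.9%), against 45.1% of the whole list. At the 5′ ends the 6 folds ranged from 5.92 to 15.4 with a median of 7.60, beside a median of 7.90 for all regions at protein-coding 5′ ends. The 42 distal regions nearest to the 10 genes had a median of 6.12, beside 6.87 for all regions over 1 kb from those ends. Regions often came in close company: 19 of 58 (32.8%) had another region of the list within 1 kb, against 16.3% of all regions. Examples are the pair at 4.1 and 4.3 kb into Lgr4, the pair at the start of Axin2, and the group 184.8 to 186.5 kb upstream of Lef1.

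**Figure D3:**
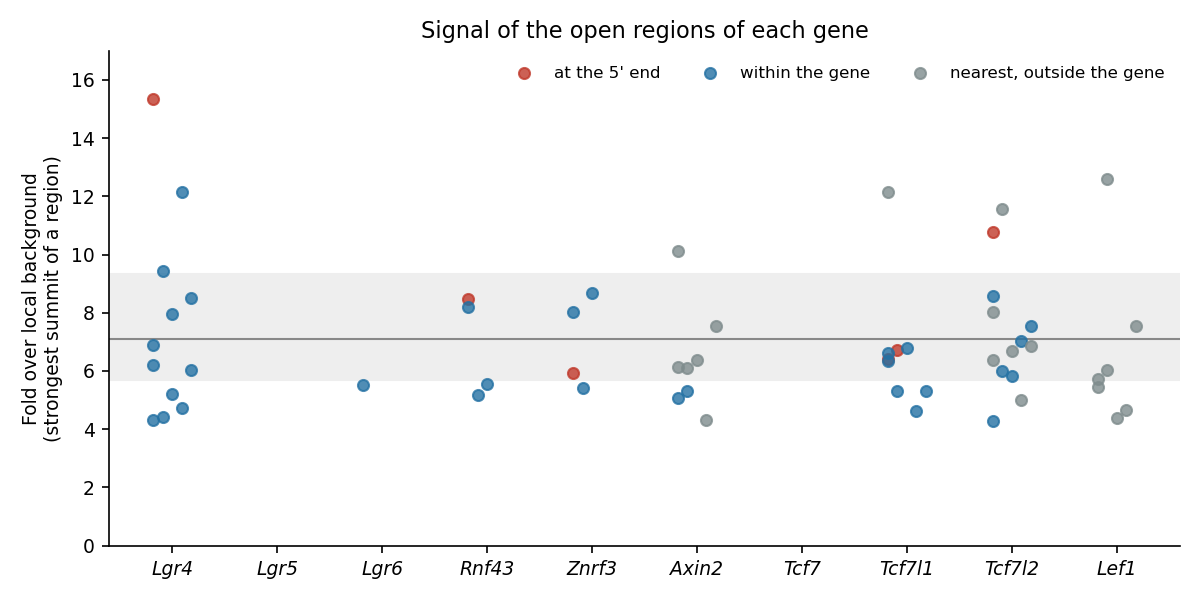
Fold over local background at the strongest summit of each region, by gene and kind of position; the band and line give the quartiles (5.70 and 9.32) and median (7.11) of all 32011 regions. Each gene with more than 1 region spans a range of values, and the highest belongs to the start of Lgr4.

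Start sites were then compared in base composition. The CpG observed/expected ratio sets the number of CG pairs in a window against that foreseen from its C and G content, and is high in CpG-rich starts. Its median was 0.799 for the 8552 start windows of protein-coding genes with a region within 1 kb and 0.30 for the 12711 without. The 5 open starts of the members had ratios of 0.634 (Rnf43), 0.711 (Lgr4), 0.799 (Tcf7l1), 0.886 (Axin2) and 1.01 (Tcf7l2). The 9 others ranged from 0.204 at the second Rnf43 start to 1.03 at a Tcf7 start, and the Lgr6 start had 0.763. The ranges of open and other starts overlapped.

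**Figure D4:**
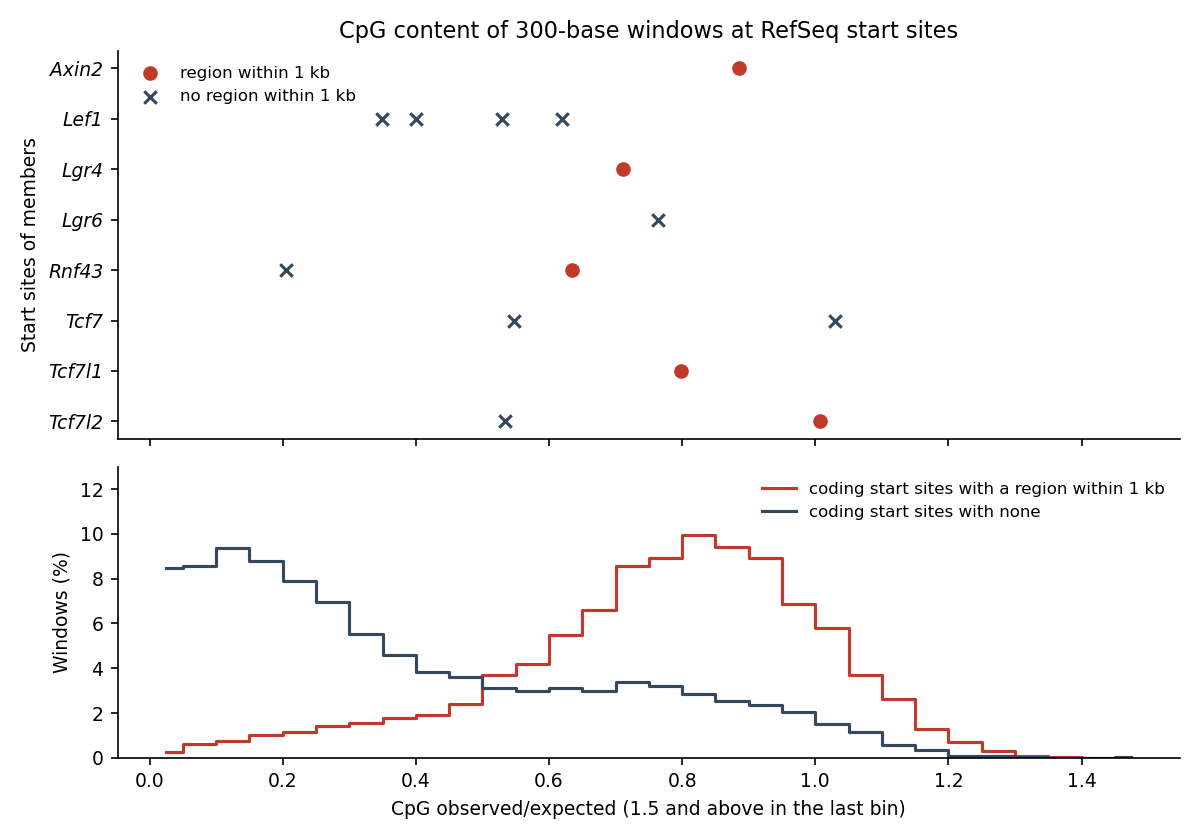
CpG observed/expected ratio of the 300-base windows at 14 RefSeq starts of 8 members (top) and of all protein-coding start windows (bottom, percent of windows), with and without a region within 1 kb. The Lgr6 start (0.763) lies within the range of the open starts, and a Tcf7 start (1.03) above it.

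The letters CTTTGAT and CTTTGAA, a core that TCF/LEF proteins recognize, were searched on both strands, and a window with either counted once. They occurred in 0 of the 14 start windows of the members, and in 7.57% of all protein-coding start windows. With CTTTG followed by any 2 of A or T, 2 of the 14 windows matched (14.3%), beside 14.7% of all windows. Both were at internal starts without a region, as were matches in 17.7% of all windows without a region. CTTTGTT began 14 bases before the second Tcf7l2 start, and CTTTGTA lay on the opposite strand at the last Lef1 start. Windows of this size leave out most of the open regions, whose other bases were not analysed here. After the windows had been seen, 2 further sets of letters were counted on both strands. CCAAT, the core bound by NF-Y, began 146 and 95 bases before the Lgr4 start, in the stretch printed above, and occurred once at the Axin2 start, at base 14 of the transcript. No other member window held it, against 38.2% of all windows. It was thus in 2 of 5 open member windows (40.0%), beside 42.3% of all windows with a region within 1 kb. Among other windows it was in 0 of 9 of the members, beside 35.4%. GGGCGG, a core of SP and KLF sites, occurred in 3 of 5 open and 6 of 9 other member windows, and in 46.2% of all windows (68.7% of those with a region within 1 kb and 31.1% of the others). Of the 3 Lef1 windows with these letters, 2 overlap and share 1 match. The Tcf7l2 start had 6 matches.

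Elsewhere in the pathway, 33 of 69 genes taken from lists by role had an open 5′ end (47.8%, beside the 38.3% of protein-coding genes). In the cytoplasmic relay and destruction complex it was 11 of 16. Ctnnb1, which encodes β-catenin, had one and was nearest to 10 further regions, and Apc, Gsk3b and Csnk1a1 each had one, whereas Axin1, Dvl2, Nkd1, Nkd2 and Tnks2 did not. Among receptors and co-receptors it was 9 of 15, including Fzd1 (9 regions nearest), Fzd4 (8) and Lrp6. Among nuclear co-factors it was 6 of 11, with 14 regions nearest to Tle3, which encodes a co-repressor that binds TCF proteins. None of the 4 R-spondin genes had an open 5′ end, and 3 regions in all were nearest to them. R-spondin1 is supplied by WRY medium. Among secreted or surface inhibitors it was 4 of 15 (Sfrp1, Wif1, Kremen1 and Apcdd1), and 0 of the 4 Dkk genes, but 23 regions were nearest to these 15 genes (8 to Sfrp1), beside 24 for the 16 genes of the cytoplasmic list. Of 8 other common target genes, 3 had an open 5′ end (Sox9, Cd44 and Tnfrsf19). Myc had none but was nearest to 31 regions, Sox9 was nearest to 23, and Ascl2, a target in intestinal stem cells, to 1. Over all protein-coding genes the mean was 1.11 nearest regions and the 95th percentile 5. The lengths of the stretches nearest to these genes, and counts with noncoding 5′ ends allowed, are not given here. Only the outermost 5′ end was used for these 69 genes. As at Axin2, a gene counted here as without an open 5′ end may have a region at another annotated start. No test was made of any difference between these lists.

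**Figure D5:**
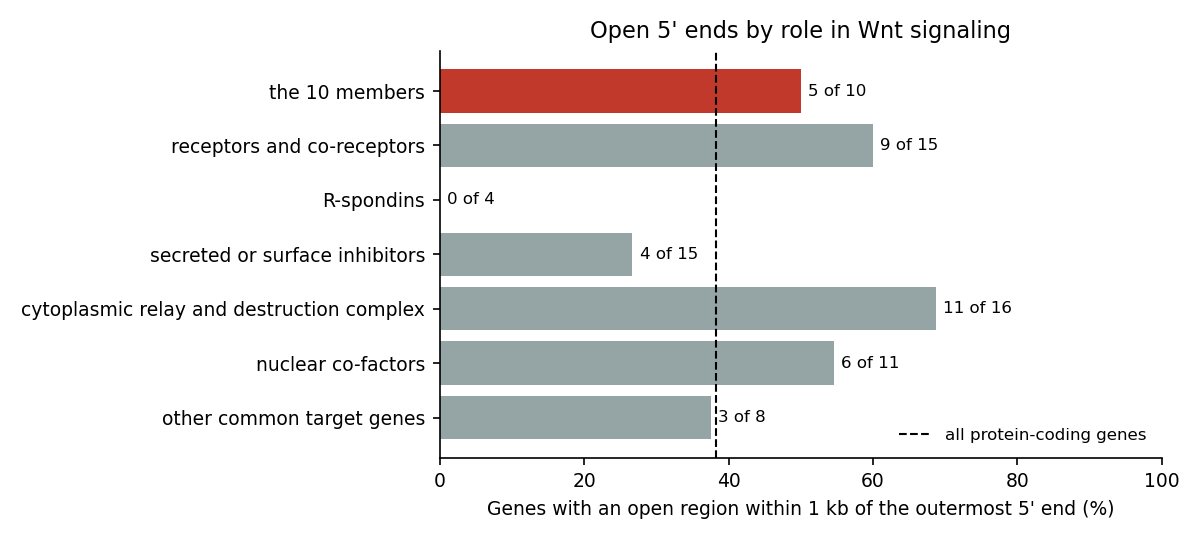
Percent of genes with an open region within 1 kb of the outermost 5′ end, for the 10 members and 6 lists of other Wnt pathway genes, with the count beside each bar; the dashed line is the 38.3% of all protein-coding genes. The list of the cytoplasmic relay and destruction complex (11 of 16) and the receptor list (9 of 15) lie highest, and the R-spondins (0 of 4) lowest.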

How the data were processed

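ATAC-seq libraries of 4 organoid samples were sequenced by the authors as 75 bp paired-end reads, aligned and peak-called with the ENCODE ATAC-seq pipeline, whose version is not given in the sources used here. The study describes a consensus peak file of all samples, and the 1 deposited list was taken to derive from it, although neither its lines nor its distinct regions number what the study gives for that file, so the 2 may differ. The authors' peak caller gave each summit a fold (ratio) over local background, a −log10 p-value and a −log10 q-value, and each region has an IDR score from 540 to 1000. The 69545 lines were joined by position into 32011 regions with the values of the summit with the lowest p-value.

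The submitters' processing notes name GRCm39 and HOMER, but region midpoints lay within 1 kb of 38.3% of protein-coding 5′ ends of RefSeq GRCm38.p6 and of 5.04% of those of GENCODE M39 (GRCm39). The list was therefore read as GRCm38. Gene extents came from the RefSeq table and strands from RefSeq start windows (17492 protein-coding genes) or, by name, from GENCODE (3948). The 2 sources differed for 125 of 22110 genes of any type compared. Of 21887 protein-coding genes, 21440 were placed.

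The members and the gene lists were chosen with earlier results of these data known. All members are named with their regions. Other genes are named by role, for the most or fewest nearest regions or, after their values were seen, as examples. Nothing was tested, since no sample has values of its own. Counting was tested on simulated data. Python 3.11.15, numpy 2.4.6, pandas 2.3.3 and matplotlib 3.10.9 were used.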

Additional observations from a re-analysis of the deposited data

How the results depend on the processing

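No paired analysis was possible because samples have no values of their own in the list, and leaving out a sample was not possible for the same reason. Of 19 counts recomputed under alternatives, 12 stayed within 1.5 times, and the 6 recomputed shares of protein-coding genes all left the 95% Wilson interval. The number of members with an open 5′ end was 5 in all settings (with Axin2 in and Znrf3 not in the table for any RefSeq start) except 4 where the region had to cover the 5′ end base, without Rnf43, and 3 in the stricter set of the 16006 regions with the lowest q-values, without Znrf3 and Tcf7l1. The share of protein-coding genes with such a region was 35.4% within 500 bp, 41.4% within 2 kb, 32.4% with the base covered, 25.9% in the stricter set, 39.9% with either end counted, and 42.0% at any RefSeq start, an alternative chosen after seeing the data. Regions within the 10 genes numbered 67 by lines and 9 in the stricter set, where Lgr4 kept 4 and Tcf7l1 0. Regions nearest to them numbered 84 by lines, 14 in the stricter set and 12 with noncoding 5′ ends allowed. Counting lines or fewer regions moves numbers by construction. Start windows with TCF/LEF letters belonged to 2 members with the looser letters, against 0. The unknown depth limits every statement that a region is missing.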
